A study of Mus musculus with 6 samples.

Results

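The genes described here encode the proteasome, taken as every gene on the array whose symbol begins with Psma, Psmb, Psmc, Psmd, Psme, Psmf or Psmg followed by a digit, without the immunoproteasome subunits Psmb8 and Psmb9. The rule found 47 genes, measured by 59 probes, among the 36084 gene names on the array. Psmc3ip, which is among them, encodes a cofactor of meiotic recombination and no proteasome protein, which left 46 subunits and accessory factors. Of these, 45 were bright enough to be tested, among 22991 genes tested in all, and Psmb11 was not.

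The study asked whether blocking the microRNA miR-433 alters scarring of the heart after infarction. Male C57BL/6 mice 8 weeks old underwent ligation of the left anterior descending coronary artery. They were injected through the tail vein on 3 consecutive days with a miR-433 antagomir, a chemically modified antisense oligonucleotide, at 80 mg/kg, or with a scrambled control oligonucleotide, for which no separate dose is given. Heart tissue was taken 21 days after infarction, and its total RNA was hybridised to 3 Agilent 1-colour arrays per group. Every array therefore comes from an infarcted heart, and no uninjured or uninjected heart was analysed here. The labels do not say that the arrays of a group came from separate mice, nor which region of the heart was taken, so p-values measure only the spread between these samples.

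The proteasome degrades proteins tagged with ubiquitin chains. Its core particle is a barrel of alpha rings, which gate the entrance, around beta rings, which hold the cutting sites. The regulatory particle caps the barrel: its base unfolds the substrate with a ring of AAA ATPases, and its lid removes the ubiquitin. In heart muscle the proteasome turns over damaged and worn sarcomere proteins, and in cells exposed to interferon-gamma alternative beta subunits replace the constitutive cutting subunits.

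Both mature arms of miR-433 are shown because the labels do not state which of them the antagomir was designed against. The seed, bases 2 to 8, is in capitals, and the sequences and positions on chromosome 12 are from RefSeq on GRCm38.p6, plus strand, at chr12:109591729-109591750 for the 5p arm and chr12:109591781-109591802 for the 3p arm.
mmu-miR-433-5p: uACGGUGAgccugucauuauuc
mmu-miR-433-3p: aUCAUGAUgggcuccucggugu
The seeds of the arms differ, so the arms belong to different seed groups.

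Constitutive proteasome genes are known to be switched on together by the transcription factor Nfe2l1, which binds antioxidant response elements. The 120 bases before the RefSeq start are shown for 2 constitutive cutting subunits and for the inducible subunit Psmb10, whose level stood apart on antagomir array 2. A match to TGACNNNGC is in capitals. Psmb5 is at chr14:54617996-54618115 on the minus strand, Psmb6 at chr11:70525237-70525356 on the plus strand and Psmb10 at chr8:105938393-105938512 on the minus strand of GRCm38.p6.
Psmb5: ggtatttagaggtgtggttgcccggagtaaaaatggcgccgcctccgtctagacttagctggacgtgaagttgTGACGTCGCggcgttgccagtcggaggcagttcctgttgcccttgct
Psmb6: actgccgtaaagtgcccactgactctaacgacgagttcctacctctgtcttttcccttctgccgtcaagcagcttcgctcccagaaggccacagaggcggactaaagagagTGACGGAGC
Psmb10: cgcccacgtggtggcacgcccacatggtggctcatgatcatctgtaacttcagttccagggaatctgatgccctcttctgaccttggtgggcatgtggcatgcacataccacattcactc
Windows of 300 bases around the start, 250 before and 50 after, were found for 38 of the 46 genes, and 4 letter patterns were searched in them on both strands. TGACNNNGC occurred in 6 of the 38 windows (15.8%), those of Psmb5, Psmb6, Psmc6, Psmd9, Psmd12 and Psme4, against 14.0% of all 27025 gene windows. CCAAT, the letters of the NF-Y box, occurred in 13 windows (34.2%) against 41.1% of all. The gamma-activated site TTCNNNGAA occurred in 2 windows (5.26%) against 9.55% of all, and the interferon-stimulated response element, searched as GAAA, any 2 bases and GAAA, in 5 windows (13.2%) against 3.99% of all. The last 5 were those of Psmb3, Psmd4, Psmd9, Psme1 and Psmg4. These matches describe the letters and say nothing about binding.

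Levels are log2 of the scanner's processed signal minus the 75th percentile of the same array, and a fold change is the antagomir mean minus the control mean of these log2 levels. Antagomir array 3 stood apart: 73.6% of its gene spots exceeded background clearly, against 55.2% to 58.5% on the other 5, and its median signal was 74.8 against 23.4 to 31.0 on the others. No spot was saturated. All arrays lay on 1 slide, with control arrays 1 and 2 in row 1 and the other 4 arrays in row 2. Markers of fibroblasts and scar were lower on the antagomir arrays for 12 of 12 genes, with a median fold change of -2.36. Ventricular cardiomyocyte markers were higher for 12 of 12, with a median of 0.23, where 62.6% of all genes were above 0. Of these 12, 10 were above the median of all genes, 0.09. Marker counts are given on this scale only, and for the genes as a whole the side of 0 depended on the scaling. Adipocyte markers were higher for 6 of 6 genes, with a median of 3.02. Atrial markers were higher for 5 of 7, among them Sln at 5.30 (SE 2.29) and Myl7 at 5.14 (SE 2.44). The 2 lower atrial markers were Nppa at -1.71 (SE 0.99) and Dkk3 at -1.56 (SE 1.11). For every adipocyte and atrial marker the groups overlapped. In bulk tissue, fewer cells of a type and less RNA per cell cannot be told apart.

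None of the 45 proteasome genes tested passed an adjusted p of 0.05 in limma's moderated test with Benjamini-Hochberg adjustment, and 3 of all 22991 genes (0.013%) did. At an unadjusted p of 0.05, no member was lower, against 4.16% of all genes, and Psma8 alone was higher, against 3.05% of all genes. Psma8 passed the brightness filter only through the antagomir arrays, so its p is no test, and it was not under 0.05 with quantile scaling, with normexp or in the authors' deposited table. The measured values nevertheless lay mostly on 1 side of 0: the fold change was above 0 for 42 of the 45 members, against 62.6% of all genes, a count that turned with 1 of the scalings described below. The median over the members was 0.17 and the median over all genes 0.09, and 36 of the 45 members were above the latter. That count was 16 of 44 without antagomir array 2, and 9 of 46 when dim probes were kept, which moved the all-gene median to 0.26. A fold change of at least 0.20 was found for 14 of 45 members, a share near that of all genes, 35%. The 42, the 36 and the 14 each include Psma8, whose side of 0 is no result, for the same reason as its p.

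**Figure D1:**
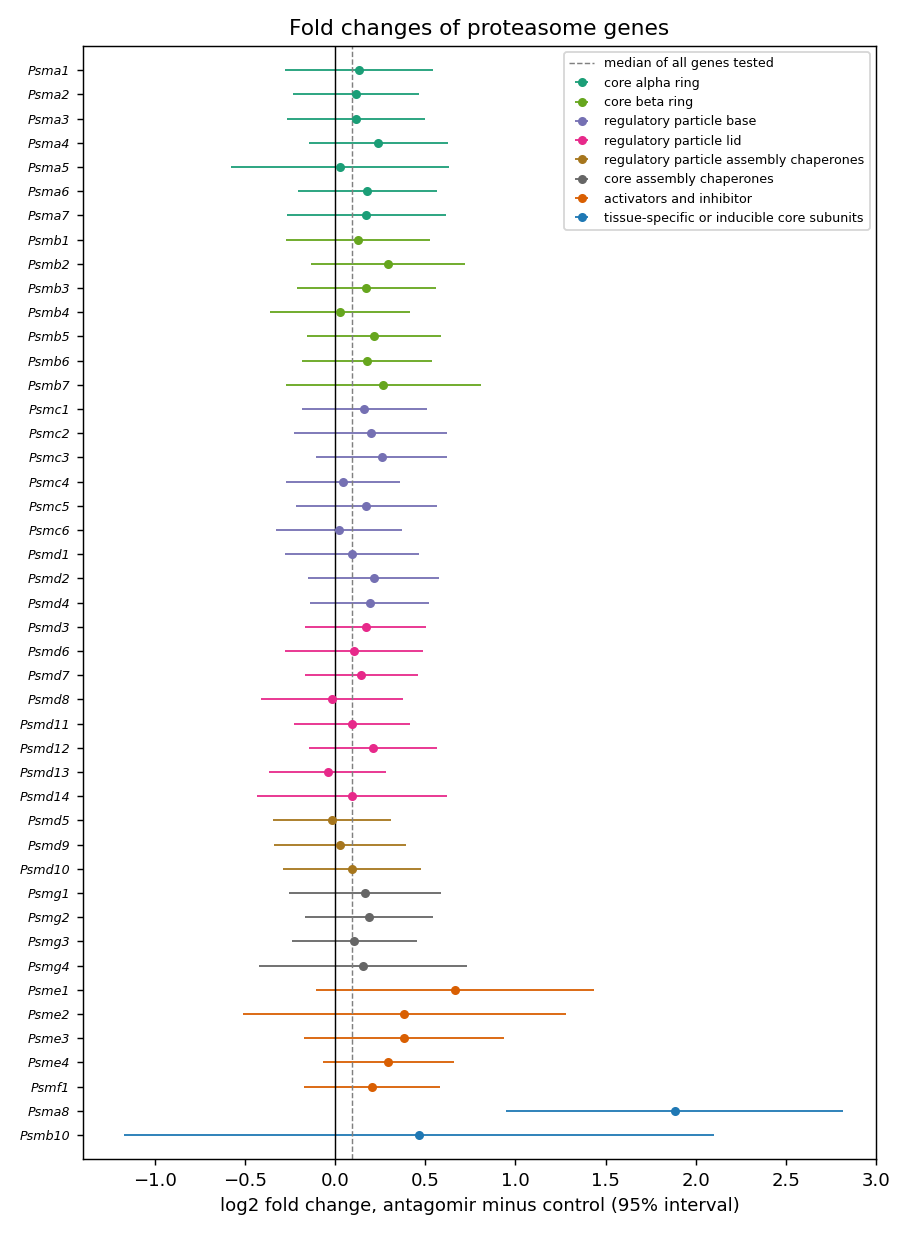
Log2 fold change, antagomir minus control, of the 45 proteasome genes tested, coloured by role. Points are the differences of the means of 3 arrays per group, bars are 95% intervals from limma, and the dashed line marks the median of all 22991 genes tested, 0.09; all intervals include 0 but that of Psma8, whose control values are below background.

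The side of 0 depended on how the arrays were scaled, as it did for the genes as a whole. With quantile scaling 35 of the 45 members were above 0, beside 10540 of 22991 genes, and with each array's median in place of its 75th percentile 2 of the 45 were, beside 3000 of 22991. The last scaling moved the all-gene median to -0.38. Relative to the all-gene median of each scaling, 40 of 45 members were higher with quantile scaling and 36 of 45 with the median. The core particle then had 12 of 14 genes higher and the regulatory particle 14 of 17 with quantile scaling, and 12 of 14 and 12 of 17 with the median. The activators and inhibitor had 5 of 5 and the core assembly chaperones 4 of 4 in each. Fold changes below are given on the 75th-percentile scale, to be read against 0.09.

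The core particle was measured by 14 genes, and every one had a fold change above 0, from 0.03 to 0.29 with a median of 0.17. The 7 alpha ring genes had a median of 0.13 and the 7 beta ring genes 0.18. All 14 of the 95% intervals included 0, and the highest bound among them was 0.81, for Psmb7, a 1.75-fold increase. With quantile scaling 10 of the 14 were above 0, and with median scaling 0 of 14.

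In the alpha ring, Psma4 had the smallest p. Its levels were 4.13, 4.08 and 4.18 on the control arrays, in the order of their numbers here and below, and 4.26, 4.62 and 4.22 on the antagomir arrays. The groups did not overlap and antagomir array 2 was highest. The difference was 0.24 (SE 0.16; limma adjusted p = 0.691), and 0.11 without that array. Groups that did not overlap in this direction were found for 8 of the 45 members, against 8.78% of all genes, and in the opposite direction for 0 members, against 6.93% of all genes. The 8 were Psma4, Psma8, Psmd3, Psmd4, Psmd7, Psmd12, Psme1 and Psmg2. The control values of Psma8 were below background and are bounds only, so its lack of overlap is no result. The counts without overlap are given only for the scale used for the fold changes here, and the side of 0 depended on the scaling. Psma6 had levels of 4.58, 4.30 and 4.62 on the control arrays and 4.76, 4.76 and 4.52 on the antagomir arrays. Its control array 2 was the lowest of the 6, and the groups overlapped, with a difference of 0.18 (SE 0.16; limma adjusted p = 0.716). Psma5 had levels of 4.49, 4.54 and 4.46 on the control arrays and 4.36, 5.04 and 4.16 on the antagomir arrays. Its control values lay close together while antagomir arrays 2 and 3 lay above and below all of them, and the difference was 0.03 (SE 0.25; limma adjusted p = 0.970). Psma1, Psma2, Psma3 and Psma7 had differences between 0.11 and 0.17.

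The cutting sites are in the beta ring subunits Psmb5, Psmb6 and Psmb7, which carry the chymotrypsin-like, caspase-like and trypsin-like activities. Psmb5, with its probe at chr14:55232957-55233016 of mm9, the build of the array design, had levels of 7.36, 7.18 and 7.49 on the control arrays and 7.56, 7.69 and 7.42 on the antagomir arrays. Control array 2 was lowest and antagomir array 3 lay between the control values, and the difference was 0.22 (SE 0.15; limma adjusted p = 0.692). Psmb6, at chr11:70341093-70341152 of mm9, had levels of 6.52, 6.33 and 6.68 on the control arrays and 6.74, 6.73 and 6.59 on the antagomir arrays. Here too antagomir array 3 was below control array 3, and the difference was 0.18 (SE 0.15; limma adjusted p = 0.706). Psmb7 had levels of 4.95, 4.43 and 5.01 on the control arrays and 5.31, 4.84 and 5.04 on the antagomir arrays. It was the 1 cutting subunit for which antagomir array 2 was below control arrays 1 and 3, and its difference was 0.27 (SE 0.22; limma adjusted p = 0.705).

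The remaining beta ring genes are structural. Psmb2 had the largest difference of the core particle, with levels of 2.22, 1.86 and 2.15 on the control arrays and 2.38, 2.57 and 2.17 on the antagomir arrays. Antagomir array 3 fell between the control values, so the groups overlapped, and the difference of 0.29 (SE 0.17) had a limma adjusted p of 0.691. Psmb4 had the smallest difference, with levels of 6.49, 6.19 and 6.57 on the control arrays and 6.45, 6.55 and 6.34 on the antagomir arrays. Its antagomir values all lay inside the range of the controls, and the difference was 0.03 (SE 0.16; limma adjusted p = 0.957). Psmb1 and Psmb3 had differences of 0.13 and 0.17.

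The regulatory particle was measured by 17 genes, of which 15 had a fold change above 0, from -0.04 to 0.26 with a median of 0.15. With quantile scaling 12 of the 17 were above 0, and with median scaling 0 of 17. The 9 base genes all had values above 0, with a median of 0.17. The 8 lid genes had a median of 0.10, with 6 of 8 above 0, against 62.6% of all genes. All 17 intervals included 0, with a highest bound of 0.62, for Psmc2, a 1.54-fold increase.

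Among the ATPases of the base, Psmc3 had the smallest p of the 31 core and regulatory particle genes. Its levels were 7.45, 7.26 and 7.54 on the control arrays and 7.72, 7.77 and 7.54 on the antagomir arrays. Antagomir arrays 1 and 2 were above every control while antagomir array 3 equalled control array 3 to the second decimal, and the difference was 0.26 (SE 0.15; limma adjusted p = 0.691). Psmc6, another ATPase, had the largest p in the base, with levels of 3.99, 3.88 and 3.98 on the control arrays and 3.98, 4.13 and 3.81 on the antagomir arrays. The antagomir arrays bracketed the controls, and the difference was 0.02 (SE 0.14; limma adjusted p = 0.958). The remaining ATPases, Psmc1, Psmc2, Psmc4 and Psmc5, had differences from 0.04 to 0.20.

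The non-ATPase genes of the base include the scaffold subunits Psmd1 and Psmd2 and the ubiquitin receptor Psmd4. Psmd2 had levels of 6.16, 5.94 and 6.27 on the control arrays and 6.45, 6.32 and 6.24 on the antagomir arrays. Only antagomir array 3 was below the highest control, and the difference was 0.21 (SE 0.15; limma adjusted p = 0.691). Psmd4, with its probe at chr3:94836627-94836686 of mm9, had levels of 6.27, 6.15 and 6.25 on the control arrays and 6.31, 6.55 and 6.37 on the antagomir arrays. All 3 antagomir values lay above all 3 control values, with a difference of 0.19 (SE 0.13; limma adjusted p = 0.692). Psmd1 had a difference of 0.09.

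In the lid, Psmd14 is the deubiquitinating enzyme that releases ubiquitin chains from the substrate. Its levels were 1.97, 1.87 and 1.88 on the control arrays and 2.01, 2.37 and 1.61 on the antagomir arrays. Antagomir arrays 2 and 3 were the highest and the lowest of the 6, and the difference was 0.09 (SE 0.22; limma adjusted p = 0.885). The lid genes Psmd12, Psmd3 and Psmd7 had groups that did not overlap. Psmd12 had levels of 5.94, 5.68 and 5.99 on the control arrays and 6.06, 6.16 and 6.02 on the antagomir arrays, a difference of 0.21 (SE 0.15; limma adjusted p = 0.691). Psmd3 had levels of 6.21, 6.23 and 6.26 on the control arrays and 6.35, 6.57 and 6.28 on the antagomir arrays, a difference of 0.17 (SE 0.14; limma adjusted p = 0.703). The gap between the highest control and the lowest antagomir array was small for each of them. Psmd7 had levels of 4.50, 4.32 and 4.45 on the control arrays and 4.63, 4.56 and 4.51 on the antagomir arrays, a difference of 0.15 (SE 0.13; limma adjusted p = 0.716). Psmd8 had levels of 3.99, 3.86 and 3.97 on the control arrays and 4.18, 3.82 and 3.77 on the antagomir arrays, a difference of -0.02 (SE 0.16; limma adjusted p = 0.970). Psmd8 and Psmd13, at -0.04, were the regulatory particle genes with values below 0, and Psmd6 and Psmd11 had 0.10 and 0.09.

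The core and the regulatory particle followed the same arrays. Averaged over the 14 core genes, the deviation from each gene's control mean was 0.06, -0.15 and 0.09 on the control arrays and 0.19, 0.31 and -0.02 on the antagomir arrays. Over the 17 regulatory particle genes it was 0.04, -0.10 and 0.07 on the control arrays and 0.17, 0.20 and -0.003 on the antagomir arrays. In each particle control array 2 was lowest, antagomir array 2 was highest, and antagomir array 3 lay below control arrays 1 and 3. The core minus the regulatory particle was 0.02, -0.04 and 0.02 on the control arrays and 0.02, 0.11 and -0.01 on the antagomir arrays. The groups overlapped. Their mean difference was 0.04, beside an SD of 0.04 among the controls and 0.06 among the antagomir arrays. These are averages over genes chosen by name and carry no test.

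**Figure D2:**
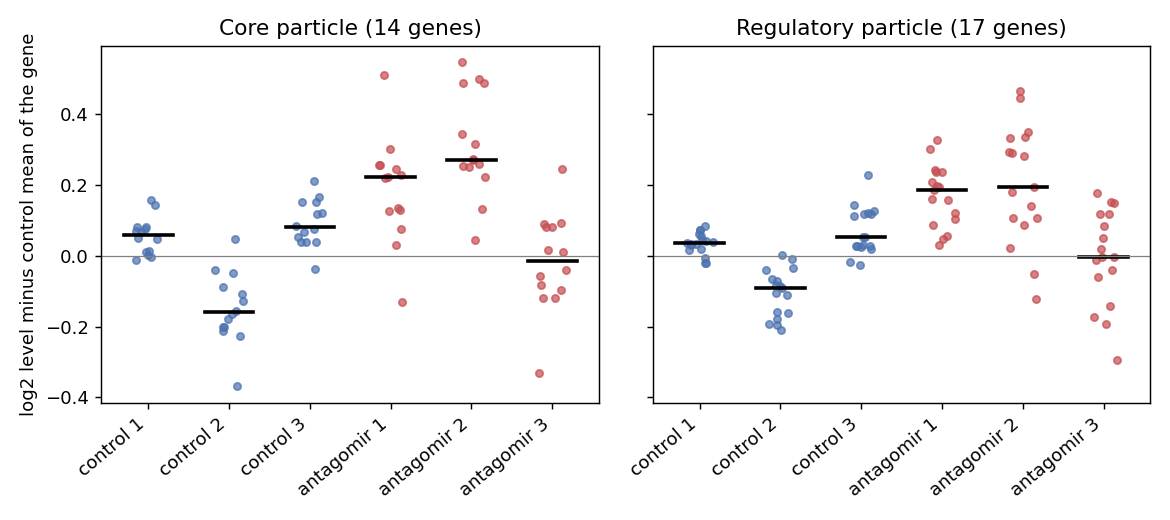
Deviation of each gene's log2 level from its own mean over the 3 control arrays, for the 14 core particle genes and the 17 regulatory particle genes on each of the 6 arrays. Each point is 1 gene, and the bar is the median over the genes; control array 2 is lowest and antagomir arrays 1 and 2 are highest for both particles, while antagomir array 3 lies at -0.01 and -0.003.

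The values rested on a few arrays. Control array 2 had the lowest level of the 6 for 30 of the 45 members, against 36.7% of all genes tested, and antagomir array 2 the highest for 26 of 45, against 18.4% of all genes. Without control array 2, the median fold change was 0.07 for the core and 0.07 for the regulatory particle, beside 0.05 for all genes. Without antagomir array 2 it was 0.09 for the core and 0.10 for the regulatory particle, both below that fit's all-gene median of 0.11. Without antagomir array 3 it was 0.26 and 0.18, beside 0.06 for all genes. With a block for slide row, which sets control array 3 alone against the antagomir arrays, it was 0.06 and 0.07, beside 0.02.

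The SD of the deviations among the 14 core genes was 0.05 to 0.10 on the control arrays and 0.14 to 0.15 on the antagomir arrays. Over all genes tested it was 0.25 to 0.39 and 0.63 to 0.81. Deviations are taken from the control mean, which makes this SD smaller on the control arrays by construction. Cardiomyocyte markers moved over the arrays in part like the particles: their mean deviation was 0.10, -0.23 and 0.13 on the control arrays and 0.31, 0.15 and 0.27 on the antagomir arrays. Control array 2 was lowest for them too, but antagomir array 3 was not low. Summed over the 12 markers, the signal relative to the 75th percentile ranged from 3928 to 4567 on the control arrays and from 4655 to 5056 on the antagomir arrays, and every marker was above the 75th percentile on every array. The part of cardiomyocyte content in the proteasome values was not tested.

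Proteins that assemble the core, the chaperones Psmg1 to Psmg4, had fold changes above 0 in 4 of 4 genes, with a median of 0.16 and a range from 0.11 to 0.19. Psmg2 had levels of 2.12, 2.09 and 2.11 on the control arrays and 2.18, 2.50 and 2.20 on the antagomir arrays. Its controls lay close together and below every antagomir array, and the difference was 0.19 (SE 0.14; limma adjusted p = 0.695). Psmg1 had levels of 4.11, 3.82 and 4.13 on the control arrays and 4.21, 4.37 and 3.97 on the antagomir arrays, a difference of 0.17 (SE 0.17; limma adjusted p = 0.744). Psmg4 had levels of 1.92, 1.76 and 1.96 on the control arrays and 1.81, 2.52 and 1.77 on the antagomir arrays, a difference of 0.15 (SE 0.24; limma adjusted p = 0.818). For Psmg4 antagomir array 2 alone was above the controls, and without it the difference was -0.09.

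The chaperones that assemble the base of the regulatory particle, Psmd5, Psmd9 and Psmd10, had smaller values, with a median of 0.03. Psmd10, also known as gankyrin, had levels of 1.20, 0.83 and 1.09 on the control arrays and 1.21, 1.20 and 1.00 on the antagomir arrays, a difference of 0.09 (SE 0.16; limma adjusted p = 0.833). Psmd9 had levels of 0.98, 0.79 and 0.90 on the control arrays and 1.11, 0.87 and 0.77 on the antagomir arrays, a difference of 0.03 (SE 0.15; limma adjusted p = 0.953). Psmd5 had levels of 1.41, 1.39 and 1.48 on the control arrays and 1.54, 1.41 and 1.28 on the antagomir arrays, a difference of -0.02 (SE 0.13; limma adjusted p = 0.968). In all 3 genes the groups overlapped, and antagomir array 1 was the highest of the 6 arrays.

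Activators cap the core in place of the regulatory particle and open its gate without using ATP. The 5 genes of this group, the activators Psme1 to Psme4 and the inhibitor Psmf1, had fold changes above 0 in every case, from 0.20 to 0.67 with a median of 0.38. Psme1 encodes PA28-alpha, an interferon-inducible subunit, and had the largest value of the group. Its levels were 6.16, 5.29 and 6.23 on the control arrays and 6.54, 6.91 and 6.23 on the antagomir arrays. Control array 2 was far below the other controls, and antagomir array 3 lay just above the highest control, so that the groups did not overlap by a narrow margin. The difference was 0.67 (SE 0.32; 95% interval -0.11 to 1.44; limma adjusted p = 0.691).

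The Psme1 probe, at chr14:56200194-56200253 of mm9, was spotted 10 times on each array, which gives the spotting error within an array and not that of labelling or hybridisation. The median unscaled signal of the 10 spots was 31795, 17943 and 31543 on the control arrays and 33402, 43875 and 29817 on the antagomir arrays. The SD of the log2 signal among the 10 spots was 0.019 to 0.037, while the SD of the levels between arrays was 0.52 in the controls and 0.34 in the antagomir group. The low value of control array 2 and the high value of antagomir array 2 were each seen at all 10 spots.

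**Figure D3:**
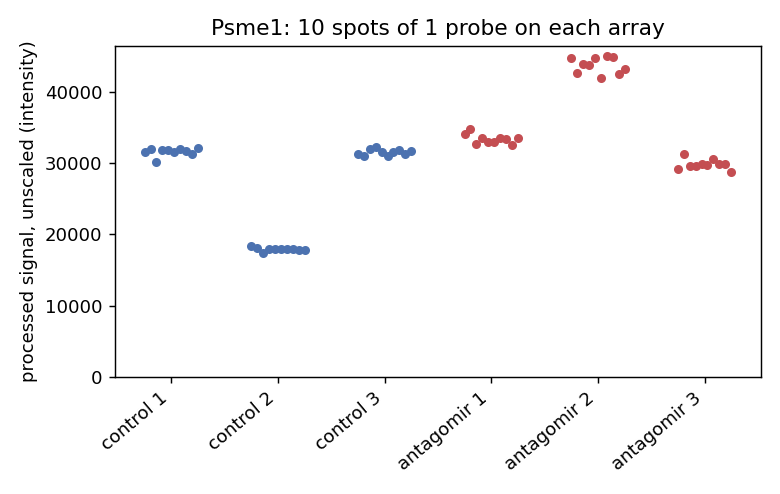
Processed signal of the 10 spots of the Psme1 probe on each of the 6 arrays, before scaling between arrays. Each point is 1 spot; spots of control array 2 lie between 17430 and 18346, below all other arrays, and spots of antagomir array 2 between 41952 and 45083, above all others.

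Psme4 encodes PA200, the activator of nuclear proteasomes. Its levels were 3.35, 3.27 and 3.47 on the control arrays and 3.77, 3.72 and 3.47 on the antagomir arrays. Antagomir arrays 1 and 2 were above the controls and antagomir array 3 was level with control array 3, and the difference was 0.29 (SE 0.15; limma adjusted p = 0.691). Psme3, the nuclear PA28-gamma, had a difference of 0.38 (SE 0.23) and Psmf1 one of 0.20 (SE 0.15).

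Psme2 encodes PA28-beta, the partner of PA28-alpha, and Psmb10 the inducible counterpart of Psmb7. Psme2 had levels of 5.46, 5.35 and 5.56 on the control arrays and 5.51, 6.68 and 5.33 on the antagomir arrays. Psmb10, with its probe at chr8:108459677-108459736 of mm9, had levels of 4.83, 5.24 and 4.75 on the control arrays and 4.55, 6.99 and 4.67 on the antagomir arrays. In each gene antagomir array 2 stood alone, at 2.35 times the mean of the other 5 arrays for Psme2 and 4.54 times for Psmb10. These were the 2 of 45 members for which antagomir array 2 was at least 2-fold above the highest of the other 5 arrays, against 1.54% of all genes tested, a criterion chosen after the values were seen.

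The group differences of these genes therefore had large errors. It was 0.38 (SE 0.37; limma adjusted p = 0.728) for Psme2 and 0.46 (SE 0.67; limma adjusted p = 0.806) for Psmb10. Without antagomir array 2 the difference was -0.04 (SE 0.15) for Psme2 and -0.33 (SE 0.20) for Psmb10, both below 0. For the constitutive cutting subunits the difference without that array was 0.15 (SE 0.16) for Psmb5, 0.16 (SE 0.17) for Psmb6 and 0.38 (SE 0.24) for Psmb7. These are to be read against that fit's all-gene median of 0.11.

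The immunoproteasome subunits that the name rule leaves out had the same pattern over the arrays. Psmb8, the inducible counterpart of Psmb5, had levels of 2.54, 2.43 and 2.32 on the control arrays and 2.26, 5.19 and 2.05 on the antagomir arrays. Psmb9, the inducible counterpart of Psmb6, had levels of 2.04, 1.92 and 1.81 on the control arrays and 1.50, 4.29 and 1.45 on the antagomir arrays. On antagomir array 2 Psmb8 was at 7.32 times and Psmb9 at 5.84 times the mean of the other 5 arrays, and on antagomir arrays 1 and 3 each was below all 3 controls. Without antagomir array 2 the difference was -0.28 (SE 0.16) for Psmb8 and -0.45 (SE 0.15) for Psmb9.

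Genes that supply peptides to major histocompatibility complex class I were high on the same array. The transporter gene Tap1 was at 7.65 times, Tap2 at 2.26 times, the chaperone Tapbp at 1.80 times and the trimming peptidase Erap1 at 1.73 times the mean of the other 5 arrays. Lymphocyte markers were high there as well. The mean deviation of the 9 tested markers from their control means was 2.53 on antagomir array 2 and -0.71 and 0.27 on antagomir arrays 1 and 3. Their summed signal relative to the 75th percentile was 36.8 on antagomir array 2, against 4.47 to 5.04 on the controls and 4.92 and 5.74 on the remaining antagomir arrays. Gzma, a granule protease of cytotoxic cells, had a level of 4.01 there and between -3.09 and -2.36 on the other 5. Over the 9 genes 7 had a fold change above 0, against 62.6% of all genes, and Cd8a and Gzmb were too dim to be tested. Other marker lists were also high on that array: the mean deviation of the 5 red blood cell markers was 2.04, with a summed signal of 921 against 142 to 489 on the other 5 arrays, and that of the 6 adipocyte markers was 3.45, beside 3.30 on antagomir array 3. The part of lymphocytes or of these other cells in the values of Psmb10 and Psme2 was not tested.

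**Figure D4:**
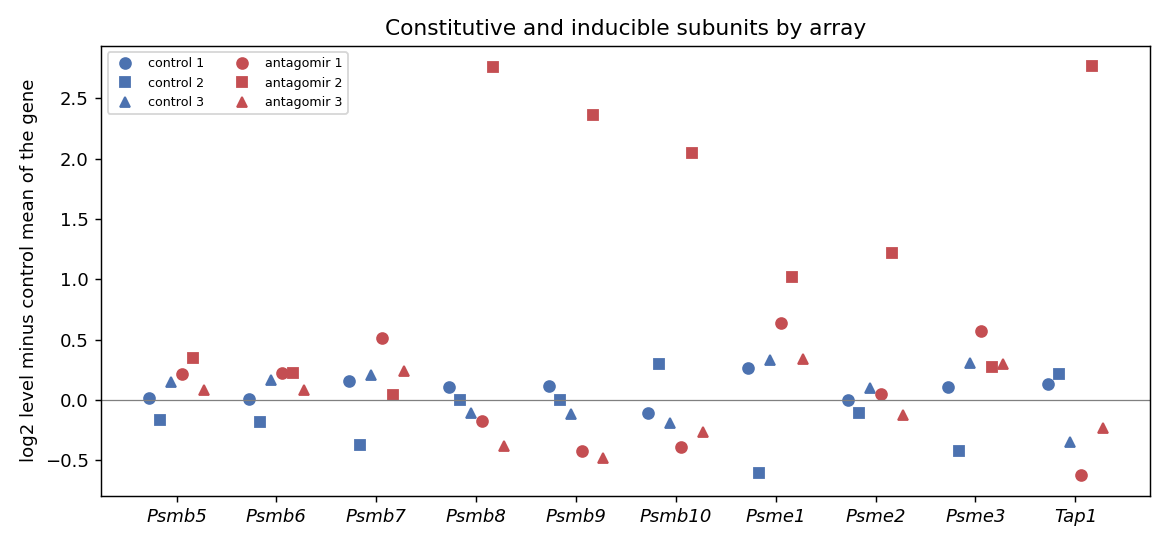
Deviation of the log2 level from the mean of the 3 control arrays for the constitutive cutting subunits Psmb5, Psmb6 and Psmb7, the inducible subunits Psmb8, Psmb9 and Psmb10, the activators Psme1, Psme2 and Psme3 and the peptide transporter Tap1. Colour gives the group and the marker the array number; antagomir array 2, the red square, stands at least 1.12 above the other 5 arrays for Psmb8, Psmb9, Psmb10, Psme2 and Tap1, by 0.38 for Psme1 and by 0.13 for Psmb5, and is not above them all for Psmb6, Psmb7 or Psme3.

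Psma8 is an alpha subunit of germ cells in the testis, and Psmb11 a beta subunit of the thymus cortex. Psma8 was dim, with levels of -5.27, -5.30 and -6.25 on the control arrays and -4.30, -3.64 and -3.23 on the antagomir arrays. It was well above background on 0 of 3 control arrays and on 3 of 3 antagomir arrays, and antagomir array 3 was the highest. Its fitted difference, 1.88, is neither a fold nor a test, since the control values are bounds only. With the lowest signal well above background on each control array standing in for a lower control value, it was 2.63-fold higher on the antagomir arrays on the 75th-percentile scale. A probe not flagged can be brighter than that lowest signal, so this is no strict bound. The size depended on the scaling: the fitted difference was 0.89 with quantile scaling, 0.89 in the authors' deposited table and 0.21 with normexp, so this value holds for the 75th-percentile scale only. Leaving out any antagomir array left Psma8 under the brightness filter. Psmb11 was above background on antagomir array 3 alone, where its signal was 35.5, against 3.09 to 6.32 on the others, and no fold is given.

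Probe composition moved with brightness on antagomir array 3. The probes of Psma8 and Psmb11 are 60% and 70% purine. Of the probes at least 60% purine that were dim on the other 5 arrays, 82.4% were above background on antagomir array 3, whereas 3.92% of those under 40% purine were. The part of this in the Psma8 and Psmb11 values was not tested. The signal of Psma8 before scaling was also higher on antagomir arrays 1 and 2, at 18.3 and 29.2, than on the controls, at 5.54 to 11.6.

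For 11 members more than 1 probe was tested, and the differences between probes of 1 gene ran from 0.01 to 0.48. The probes had the same sign in 7 of the 11 genes. In Psmc1, Psmd9, Psmd10 and Psme2 they had opposite signs. The brighter Psmc1 probe gave 0.16 (SE 0.15) and the other -0.03 (SE 0.16), less than the sum of their errors apart. The Psmd10 probes gave 0.09 (SE 0.16) and -0.18 (SE 0.19), and the Psmd9 probes 0.03 (SE 0.15) and -0.03 (SE 0.16). Of the 3 Psme2 probes, the brightest gave 0.38 and the next 0.42, and on each of these antagomir array 2 was the highest. The dimmest gave -0.06, with antagomir array 2 at -1.18 inside the range of the controls, -1.51 to -0.99. The design places this dimmest probe across chr14:56209736-56429032 of mm9, so it may not measure Psme2 alone, and without it the Psme2 probes had the same sign.

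Among genes that work with the proteasome and do not bear its names, none of 68 passed an adjusted p of 0.05 in limma, where the background share is 0.013%. Counts above 0 in these lists are to be read beside the 62.6% of all genes that were above 0. Of 11 direct partners 10 had a fold change above 0, with a median of 0.12, and 7 were above the all-gene median. Uchl5, a deubiquitinase docked on the regulatory particle, had 0.33 (SE 0.17) and Ubfd1 0.25 (SE 0.16). The ubiquitin receptor Adrm1 had 0.08 (SE 0.17), and Pomp, which matures the core, had 0.20 (SE 0.18). With median scaling 0 of the 11 were above 0, as were at most 3 genes of any list below, so these counts too are relative to the scale.

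The factors that control proteasome genes had a median of 0.005, with 7 of 13 genes above 0 and 5 above the all-gene median. Nfe2l1 had levels of 0.31, 0.44 and 0.40 on the control arrays and 0.47, 0.60 and 0.70 on the antagomir arrays. The groups did not overlap, and the difference was 0.21 (SE 0.13; limma adjusted p = 0.691). Nfe2l2, the related factor of the oxidative stress response, had 0.18 (SE 0.19), and Foxm1, a cell cycle factor, -0.80 (SE 0.34; limma unadjusted p = 0.058).

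Upstream of the proteasome, 13 of 14 genes of ubiquitin and its activation had a fold change above 0, with a median of 0.17. Of the 14, 11 were above the all-gene median. The conjugating enzyme Ube2d1 had 0.57 (SE 0.23), the 1 gene of the 68 with an unadjusted p under 0.05, at 0.047. Ligases of muscle, including Trim63 and Fbxo32, had a median of 0.07, with 10 of 14 above 0, against 62.6% of all genes, and 6 of 14 above the all-gene median. Trim54 had 0.34 (SE 0.17) and Cblb -0.23 (SE 0.19). Shuttle factors and the unfoldase partners had a median of 0.16, with 8 of 10 above 0, among them Faf1 at 0.30 (SE 0.19), and 6 of 10 above the all-gene median. The 6 genes of the immunoproteasome and peptide supply all had values above 0, with a median of 0.43, and each owed its sign to antagomir array 2 except Erap1, which was at 0.14 (SE 0.19) without it. Psmc3ip, the gene that shares the name pattern only, had a difference of 0.14 (SE 0.30; limma adjusted p = 0.869).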

How the data were processed

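The genes and lists were chosen with earlier results of these data known. Agilent Feature Extraction 10.7.1.1 produced the deposited scanner output, per the file headers, which gives each spot's background-corrected processed signal as an intensity. The authors' deposited table repeats these intensities and adds normalised log2 values, used as an alternative only. Other values in the deposited scanner output are flags of 0 or 1, per the file headers. Control spots and flagged outliers were left out, spots of a probe were averaged, and log2 signals were set against the array's 75th percentile, with no pseudocount. A probe was tested if 3 or more of the 6 arrays had it well above background, 1 per gene, the one with the highest mean. The test was limma 3.58.1 (lmFit and eBayes, R 4.3.3) with Benjamini-Hochberg adjustment over 22991 genes, after tests on simulated data. With 3 arrays per group an exact permutation test could not go below p = 0.10. Named genes were, per role group, the 2 smallest and the largest p, plus cutting, tissue-specific and non-overlapping members and those with discordant probes. Outside the name rule they were Psmb8, Psmb9, Nfe2l1, Nfe2l2, Adrm1, Pomp and the 2 smallest p of each list. Of these, 2 genes are not reported here. Promoter and miRNA sequences are from RefSeq (GRCm38.p6) and probe positions from the array design (mm9). Alternatives covered scaling, background correction, the brightness filter, probe choice, the variance model, array weights, blocks and each array left out.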

Additional observations from a re-analysis of the deposited data

How the results depend on the processing

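No proteasome gene passed an adjusted p of 0.05 under any of the 11 alternatives or with any array left out. With median scaling, 0 core and 0 regulatory particle genes were above 0. Without the brightness filter the all-gene median rose to 0.26, and the core median was -0.084 and the regulatory particle median -0.112 relative to it. With every Psma and Psmb gene against every Psmc and Psmd gene, the core minus the regulatory particle was 0.177, beside 0.037 in the main fit. This adds Psma8 and Psmb10 to the former and Psmd5, Psmd9 and Psmd10 to the latter. The value includes the fitted 1.88 of Psma8, which is neither a fold nor a test. It also includes the 0.46 of Psmb10, which was -0.33 without antagomir array 2. It therefore does not show a larger difference between the particles. The same-numbered arrays of the groups deviated together with correlations of 0.22, 0.14 and -0.049, so the numbers were not taken to pair the samples. A fit with the replicate number as a block called 0 members and 0 genes in all, and left the core median 0.082 above the all-gene median.

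Values of 45 named genes were taken relative to the median, in each fit, of the genes tested in the main fit. The alternatives gave 760 such values, of which 46 had the opposite sign to the reported one, none with a call. By this reference 24 genes kept their sign throughout. Without the brightness filter, this reference leaves out the dim genes that raised the all-gene median to 0.26. Against that 0.26 only 9 of 46 members were higher, so signs kept without the filter hold for this reference only. Quantile scaling gave 0.069 for Adrm1, 0.11 for Psmd14, 0.013 for Psmd5 and 0.060 for Psmd9, and the values in the authors' table gave 0.069, 0.11, 0.012 and 0.060 for the same genes. Background correction with normexp gave 0.016 for Adrm1, 0.10 for Psmd14 and 0.037 for Psmd9. Probes above background on all 6 arrays gave 0.0047 for Psmd14. The mean of probes gave -0.036 for Psmc1 and -0.14 for Psmd10. Array weights gave -0.092 for Psmb9, -0.058 for Psmd10 and -0.064 for Psmg4. A block for slide row gave 0.041 for Psma5, -0.015 for Psmb6 and 0.094 for Psmd14. With each array left out in turn, the values ran from -0.092 to 0.056 for Adrm1, -0.088 to 0.28 for Nfe2l2, -0.067 to 0.23 for Pomp, -0.00042 to 0.25 for Psma4, -0.35 to 0.15 for Psma5, -0.44 to 0.80 for Psmb10, -0.14 to 0.021 for Psmb4, -0.39 to 1.23 for Psmb8 and -0.56 to 0.91 for Psmb9. They ran from -0.018 to 0.18 for Psmc1, -0.17 to 0.047 for Psmc6, -0.058 to 0.10 for Psmd10, -0.21 to 0.23 for Psmd14, -0.029 to 0.17 for Psmd3, -0.15 to 0.040 for Psmd9, -0.15 to 0.58 for Psme2, -0.041 to 0.21 for Psmg1, -0.031 to 0.17 for Psmg2 and -0.20 to 0.23 for Psmg4. The causes were not tested.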
